A study of Caenorhabditis elegans with 12 samples.

Results

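The *col* genes of *C. elegans* are the numbered members of the cuticle collagen family. They were taken by symbol, with no measured value in the rule: 156 of the 46726 genes in the expression table carried a WBcel235 symbol made of *col-* and a number, and all 156 are annotated as protein coding. RNA was sequenced from whole worms of the *alh-6(lax105)* mutant and of WT (N2 Bristol), both grown from synchronized L1 larvae on plates with OP50 bacteria, with 3 libraries in each group. Animals were collected as day 3 adults (120 hr after the L1 larvae were dropped) or at the L4 stage (48 hr), which gave 4 groups: *alh-6* and WT day 3 adults, and *alh-6* and WT L4 animals. *alh-6* encodes a mitochondrial enzyme of proline catabolism, and lax105 is a loss-of-function allele. The labels number the libraries without saying that each came from its own culture, while the study's figure legends speak of biological replicates. The p-values measure the spread between these libraries, part of which may be technical.

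The cuticle is the collagen exoskeleton that the epidermis secretes. It is rebuilt at each molt, and the last molt separates L4 from the adult. Collagen genes are transcribed in waves within each molting cycle, and some are used for the cuticle of 1 life stage only. The chains carry Gly-X-Y repeats, are hydroxylated and trimmed on their way out of the cell, and are then cross-linked outside it. Not every *col* name marks a cuticle collagen: *col-99* encodes a transmembrane collagen and was kept here because the choice went by name.

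Expression was deposited as FPKM, which divides a gene's reads by its length and by the library's total on genes, so levels of different genes can be set side by side. The libraries held 19248229 to 23575173 reads on genes (median 20632421). Replicates differed by more than counting noise in every group, with chi-square values of 6.18 to 15.52 for each degree of freedom. The *alh-6* transcript itself was at 60.9, 62.6 and 60.6 FPKM in *alh-6* L4 animals, against 68.4, 70.3 and 70.5 FPKM in WT L4 animals. In day 3 adults it was at 34.8, 32.0 and 34.0 FPKM in *alh-6* animals, against 33.7, 33.9 and 31.8 FPKM in WT. It did not pass the test at either stage, so its level does not check the genotype labels.

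The *col* genes lie on all 6 chromosomes, with 41 on IV, 31 on V, 27 on X, 24 on II, 21 on I and 12 on III. Their annotated exons cover 465 to 2960 bases, with a median of 1020. Of the 156 genes, 112 reached 1 FPKM in at least 3 of the 6 L4 libraries and were tested at L4, and 56 did so in day 3 adults. Both stages tested 54 of them, L4 alone 58, and day 3 adults alone *col-116* and *col-158*. The other 42 entered no test. Of these, 35 stayed under 1 FPKM in every library, among them the dauer collagen *col-2* (highest value 0.299 FPKM), and *col-37*, *col-164* and *col-171* were listed at 0 in all 12 libraries. The remaining 7 were *col-74*, *col-75*, *col-105*, *col-123*, *col-128*, *col-165* and *col-187*. The family shares sequence, and how reads that fit several genes were counted is not given in the sources used here, so values of near-identical genes such as the neighbours *col-12* and *col-13* are uncertain. A further limit is that 51 *col* genes share exon bases with another gene of the table.

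**Figure D1:**
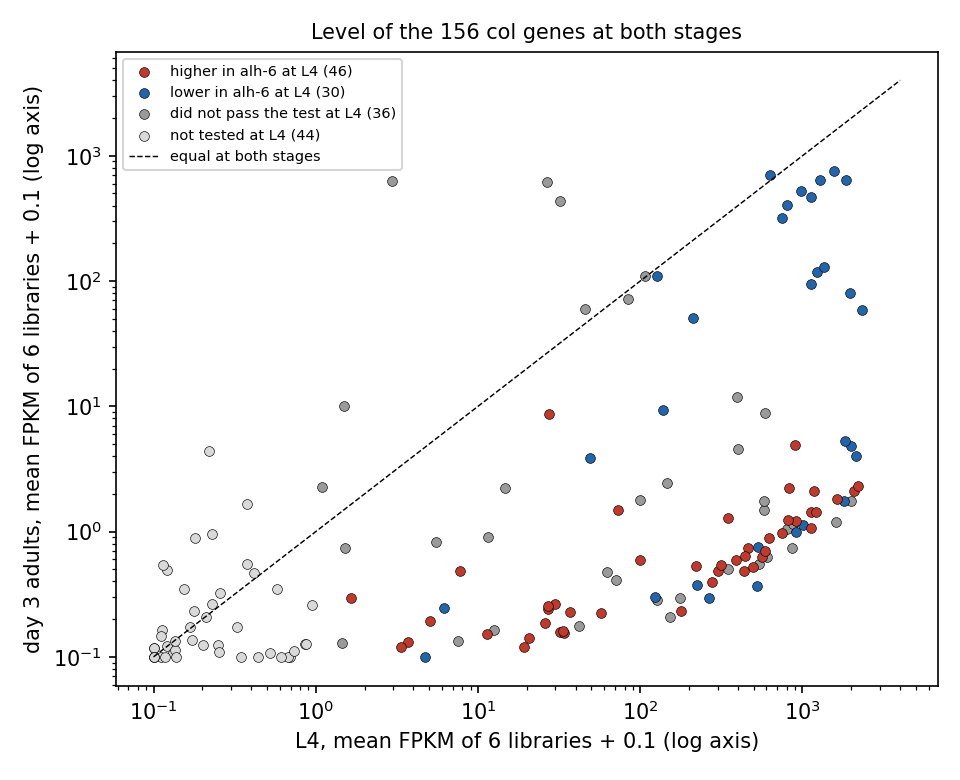
Each point is 1 of the 156 *col* genes; the axes give its mean FPKM + 0.1 over the 6 L4 libraries (horizontal) and the 6 day 3 libraries (vertical), both on log axes, and colours give the call at L4. Most points lie far below the dashed line of equal level, and the 22 genes at 10 FPKM or more in day 3 adults include no gene called higher in *alh-6* at L4.

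Collagen transcripts were far scarcer in day 3 adults than at L4 in both genotypes. The summed FPKM of the 156 genes was 6771, 7673 and 9187 in *alh-6* day 3 adults, and 63330, 61268 and 60385 in *alh-6* L4 animals. In WT it was 6709, 6668 and 5877 in day 3 adults, and 60262, 58952 and 63249 at L4. As a share of all reads on genes this was 0.785% in *alh-6* day 3 adults and 6.12% in *alh-6* L4 animals, and 0.638% in WT day 3 adults and 6.06% in WT L4 animals. In whole worms, a smaller share of epidermal RNA and less collagen RNA per epidermal cell cannot be told apart, and adults also carry germline and embryo RNA. Markers moved with stage too: all 5 oocyte and eggshell markers were called higher in day 3 adults in both genotypes, with summed levels of 2449 to 2661 FPKM in *alh-6* day 3 adults and 274 to 321 FPKM in *alh-6* L4 animals. Of 6 epidermis markers, 5 were lower in day 3 adults and *nhr-23* was higher, also in both genotypes. Their summed level was 38.4 to 43.4 FPKM in *alh-6* day 3 adults and 80.7 to 86.1 FPKM in *alh-6* L4 animals, and 40.4 to 43.3 FPKM in WT day 3 adults and 82.9 to 94.6 FPKM in WT L4 animals. All 4 muscle markers (294 to 321 FPKM in *alh-6* day 3 adults and 2792 to 2987 FPKM in *alh-6* L4 animals) and all 5 sperm markers (1.08 to 2.88 FPKM in *alh-6* day 3 adults and 443 to 515 FPKM in *alh-6* L4 animals) were lower in both genotypes. Among all genes tested, 36.4% were higher and 53.2% lower in day 3 adults in *alh-6*, and 37.2% and 51.8% in WT. The part of these markers in the collagen result was not tested.

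In WT, limma with Benjamini-Hochberg adjustment called 104 of the 114 *col* genes tested lower in day 3 adults than at L4, where 51.8% of all genes tested were lower. It called 7 higher, where 37.2% of all genes were. Of the 104, 101 were at least 2-fold lower, which 42.5% of all genes were. Of the 114, 58 passed the 1 FPKM filter through L4 alone, and *col-116* and *col-158* through day 3 adults alone. For those 58 a lower call was close to fixed by the filter in both genotypes, so the count of lower genes is not support by itself. For *col-116* and *col-158* a higher call was close to fixed in the same way. The median log2 difference was -6.96 for the *col* genes and -0.52 for all genes tested. In *alh-6* 102 were lower (53.2% of all genes) and 11 higher (36.4% of all genes), with a median of -7.69 for the *col* genes and -0.61 for all genes. Rescaling each library by its median ratio set the median of all genes at -0.37 in both genotypes and left *col* medians of -7.51 in *alh-6* and -6.82 in WT. All log2 values here are differences on the log2(FPKM + 0.1) scale, which understates the change of genes near 0.

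The named genes with the deepest falls with stage stood at a few FPKM or less in every day 3 library. *col-73* was at 1.88, 1.99 and 1.66 FPKM in *alh-6* day 3 adults, and at 2652, 2629 and 3132 FPKM in *alh-6* L4 animals, a log2 difference of -10.49 ± 0.09 (SE). *col-133* was at 1.03, 1.30 and 1.03 FPKM in WT day 3 adults, and at 1585, 1504 and 1788 FPKM in WT L4 animals, with -10.38 ± 0.10. *col-146* fell by 10.83 ± 0.18 on the log2 scale in WT, the deepest fall among named genes there. In each of these genes every L4 library lay above every day 3 library. *col-88*, *col-91* and *col-161* also fell by over 10 log2 units in *alh-6*, and *col-39*, *col-129* and *col-145* did so in WT. *col-7*, one of the collagens known from the adult cuticle, was at 0.0999, 0.147 and 0.0483 FPKM in *alh-6* day 3 adults, and at 216, 196 and 152 FPKM in *alh-6* L4 animals. Its WT values were 0.383, 0.232 and 0.261 FPKM in day 3 adults, and 325, 353 and 341 FPKM at L4. Of the genes named here, *col-7*, *col-39*, *col-88*, *col-91*, *col-145* and *col-146* passed the 1 FPKM filter through L4 alone. For these a lower call was close to fixed in advance.

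A few *col* genes ran against the family. *col-95* (WBGene00000670, WBcel235 chromosome III from 11703994 to 11705091) was at 640, 701 and 811 FPKM in *alh-6* day 3 adults, and at 2.80, 1.86 and 2.85 FPKM in *alh-6* L4 animals. In WT it was at 554, 554 and 479 FPKM in day 3 adults, and at 2.89, 3.74 and 2.98 FPKM at L4, a log2 difference of 7.33 ± 0.16 with an adjusted p of 1.07e-12 (limma). The day 3 and L4 libraries did not overlap in either genotype. *col-101* was higher in day 3 adults by 4.73 ± 0.19 in *alh-6* and 4.32 ± 0.19 in WT, and *col-143* by 3.96 ± 0.24 in *alh-6* and 3.63 ± 0.24 in WT. *col-135* was higher by 3.31 ± 0.19 in *alh-6* and 2.18 ± 0.19 in WT. *col-158*, at 4.35, 4.59 and 6.76 FPKM in *alh-6* day 3 adults and at or under 0.213 FPKM in every L4 library, was higher by 4.54 ± 0.30 in *alh-6* and 4.10 ± 0.30 in WT. The remaining 2 of the 7 genes higher in WT were *col-43* and *col-116*, both at a few FPKM. Since *col-116* and *col-158* passed the 1 FPKM filter through day 3 adults alone, their higher calls were close to fixed by it. In *alh-6*, *col-8*, *col-42*, *col-98* and *col-119* were called higher as well, which makes 11. The *alh-6* day 3 and L4 libraries of *col-8*, *col-42* and *col-98* overlapped, and those of *col-119* did not. With replicate 3 of the *alh-6* day 3 adults left out 7 were higher, and with replicate 3 of the *alh-6* L4 animals left out also 7.

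Day 3 expression was carried by few genes. The 8 highest held 69.5% of the summed *col* FPKM in day 3 adults and 27% at L4, and the 20 highest held 97.3% in day 3 adults and 54.7% at L4. In day 3 adults the 8 were *col-122* (750 FPKM, mean of 6 libraries), *col-119* (702), *col-181* (645), *col-140* (640), *col-95* (623), *col-101* (615), *col-106* (522) and *col-178* (468). At L4 they were *col-93* (2325 FPKM), *col-125* (2199), *col-81* (2129), *col-73* (2089), *col-139* (2001), *col-161* (1995), *col-124* (1953) and *col-140* (1850). Only *col-140* stood in both lists. At L4, 73 *col* genes averaged at least 100 FPKM and 23 at least 1000 FPKM, while in day 3 adults 15 averaged at least 100 FPKM and 22 at least 10 FPKM.

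At L4 the *col* genes differed between the genotypes in both directions, while their summed level overlapped. Of the 112 tested, limma with Benjamini-Hochberg adjustment over all genes called 46 higher in *alh-6* than in WT, where 8.19% of all genes tested were higher. It called 30 lower, where 7.15% of all genes were, and 36 did not pass. At least 2-fold changes numbered 16 higher (2.45% of all genes) and 2 lower (0.881% of all genes). The 2 lower genes were *col-179* and *col-8*. Log2 differences ran from -1.04 to 1.84 with a median of 0.25, against -0.03 for all genes tested. The summed FPKM averaged 61661 ± 1512 in *alh-6* and 60821 ± 2202 in WT (SD, n = 3 each), and its libraries overlapped. Leaving out each of the 6 libraries in turn kept 65 of the 76 calls throughout, 40 higher and 25 lower. With all 12 libraries in 1 fit, 31 were higher (6.68% of all genes tested) and 21 lower (9.22% of all genes tested).

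**Figure D2:**
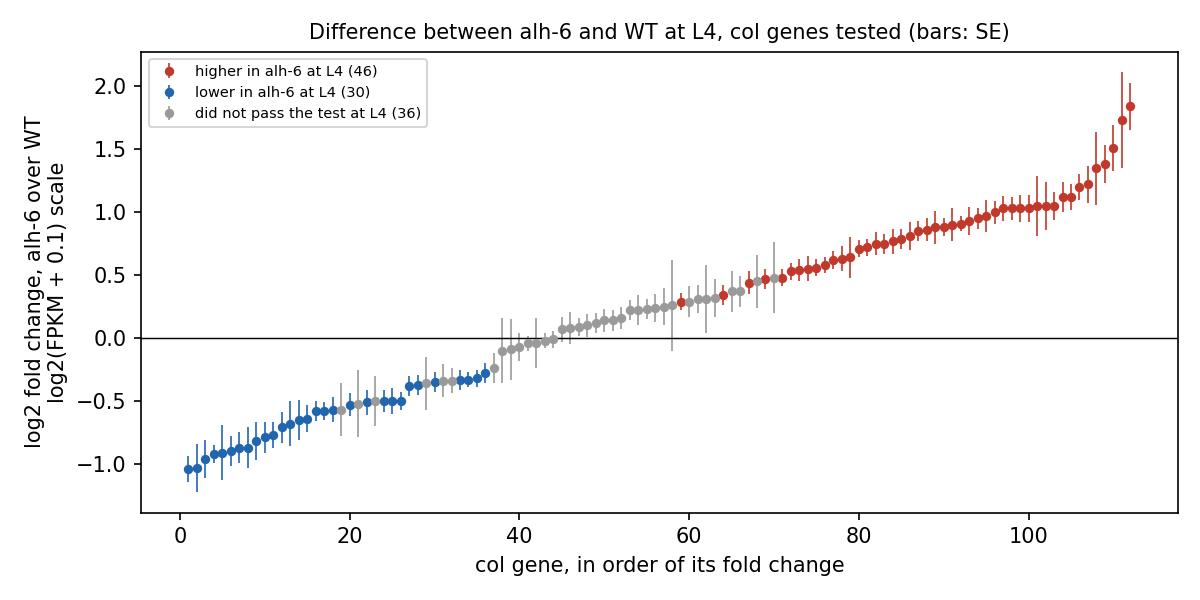
Log2 difference of *alh-6* from WT at L4 for the 112 *col* genes tested, in order of size, with bars for the SE; colours give the call. The values run from -1.04 (*col-179*) to 1.84 (*col-176*), with 46 genes called higher and 30 lower.

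The largest rises, taken where 1 genotype averaged 5 FPKM or more, were in genes of low or moderate level. *col-176* (WBGene00000749, chromosome X from 10077597 to 10078728) was at 12.2, 10.5 and 13.2 FPKM in *alh-6* L4 animals, against 4.07, 3.42 and 2.47 FPKM in WT. Its log2 difference was 1.84 ± 0.19 (SE, adjusted p = 0.000457, limma). *col-41* (WBGene00000618, chromosome X from 15175032 to 15176481) was at 7.72, 5.87 and 8.47 FPKM in *alh-6*, against 2.85, 2.58 and 2.09 FPKM in WT, a difference of 1.51 ± 0.18. In both genes every *alh-6* library lay above every WT library. *col-54* was at 5.47, 4.93 and 5.33 FPKM in *alh-6*, against 2.01, 1.73 and 2.14 FPKM in WT (1.38 ± 0.15). *col-33* (chromosome IV from 4263293 to 4265223) was at 15.5, 14.6 and 17.3 FPKM in *alh-6*, against 7.70, 5.33 and 7.36 FPKM in WT (1.22 ± 0.15). *col-110* (chromosome IV from 4608201 to 4609668) was at 53.8, 47.6 and 51.9 FPKM in *alh-6*, against 24.8, 22.9 and 19.1 FPKM in WT (1.20 ± 0.10). None of these 3 overlapped either, and 17 exon bases of *col-110* are shared with *nspg-10* on the opposite strand. All 5 were at or under 0.806 FPKM in every day 3 library.

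Some of the most abundant L4 collagens rose too. *col-73* (WBGene00000649, chromosome II from 4872098 to 4873129) was at 2652, 2629 and 3132 FPKM in *alh-6*, against 1458, 1246 and 1420 FPKM in WT, a log2 difference of 1.03 ± 0.09 (adjusted p = 0.000225, limma). *col-38* was at 1093, 1146 and 1356 FPKM in *alh-6*, against 628, 525 and 612 FPKM in WT (1.03 ± 0.10), and was picked after its values were seen. *col-63* (1.12 ± 0.10) and *col-48* (0.95 ± 0.08) were other strongly expressed genes that rose. *col-125*, at 2421, 2394 and 2434 FPKM in *alh-6* against 1949, 1827 and 2169 FPKM in WT, rose by 0.29 ± 0.07. *col-88* (0.54 ± 0.09) and *col-91* (0.34 ± 0.08) rose as well. Named genes of lower level rose too. *col-90* averaged 68.5 FPKM in *alh-6* and 45.9 FPKM in WT (0.58 ± 0.06). *col-115* averaged 44.2 FPKM in *alh-6* and 23.7 FPKM in WT (0.90 ± 0.13), and *col-152* 40.8 FPKM in *alh-6* and 26.1 FPKM in WT (0.64 ± 0.16). The *alh-6* and WT libraries were separate in all of these genes, but over 13 other settings (the 2-fold threshold aside) the call was lost in 6 for *col-91*, 6 for *col-152* and 4 for *col-125*.

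The falls at L4 were in a different set of collagens. *col-179* (WBGene00000752, chromosome X from 11201465 to 11202485) was at 157, 140 and 117 FPKM in *alh-6*, against 273, 282 and 292 FPKM in WT, a log2 difference of -1.04 ± 0.10 (adjusted p = 0.000371, limma). *col-8* (chromosome III from 7019583 to 7020600) was at 111, 81.5 and 63.7 FPKM in *alh-6*, against 172, 183 and 155 FPKM in WT (-1.03 ± 0.19). *col-119* (chromosome IV from 8978926 to 8979795) was at 516, 454 and 331 FPKM in *alh-6*, against 821, 872 and 798 FPKM in WT (-0.96 ± 0.15). In these 3 genes every *alh-6* library was below every WT library, with replicate 3 the lowest. *col-96* was at 34.4, 34.8 and 32.2 FPKM in *alh-6*, against 61.5, 65.5 and 64.6 FPKM in WT (-0.92 ± 0.07). *col-142* was at 128, 95.2 and 69.6 FPKM in *alh-6*, against 182, 194 and 160 FPKM in WT (-0.91 ± 0.22, adjusted p = 0.0371). *col-142* thus spread widely among the *alh-6* libraries, and still did not overlap with WT, and its call was lost in 4 of the 13 settings. Other named collagens fell too, *col-80* by 0.87 ± 0.16, *col-146* by 0.77 ± 0.10, *col-39* by 0.64 ± 0.11, *col-81* by 0.57 ± 0.10, *col-124* by 0.53 ± 0.09 and *col-93* by 0.35 ± 0.08 on the log2 scale.

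**Figure D3:**
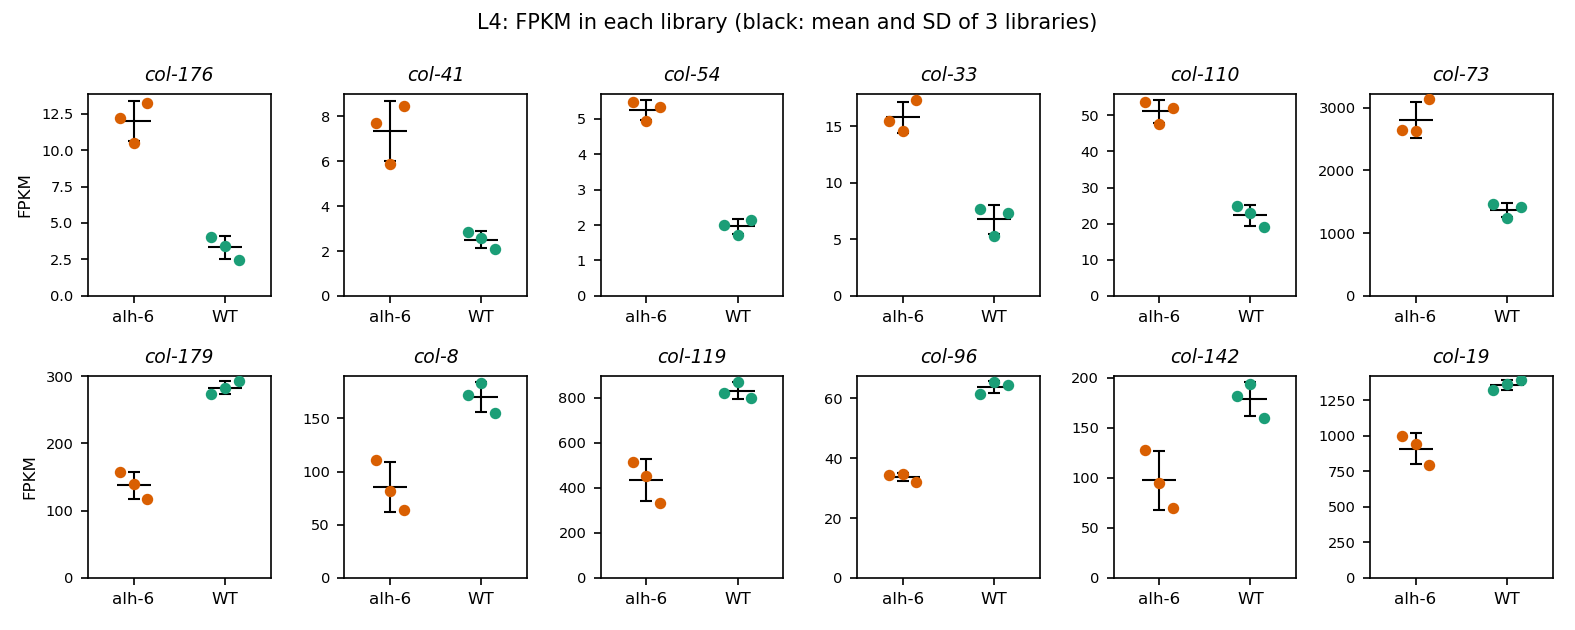
FPKM of 12 *col* genes in each L4 library, *alh-6* left and WT right, with the mean and SD of 3 libraries in black; each panel has its own axis from 0. The 6 genes of the upper row are higher in every *alh-6* library than in any WT library, and the 6 of the lower row are lower in every *alh-6* library.

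Members with a described role followed no common direction at L4. *col-19*, a collagen of the adult cuticle that depends on the heterochronic factor LIN-29, was at 999, 941 and 792 FPKM in *alh-6*, against 1322, 1364 and 1392 FPKM in WT (-0.58 ± 0.08, adjusted p = 0.00244, limma). *col-7*, the other adult collagen, fell by 0.87 ± 0.12 (adjusted p = 0.00205). Both were lower in every *alh-6* library than in any WT library. Of the collagens whose extra copies have been reported to lengthen worm lifespan, *col-120* was at 745, 772 and 844 FPKM in *alh-6*, against 452, 406 and 533 FPKM in WT (0.77 ± 0.10). *col-10* (0.32 ± 0.15, adjusted p = 0.173) and *col-13* (-0.34 ± 0.10, adjusted p = 0.0618) did not pass, nor did *col-12* next to *col-13* (-0.34 ± 0.13, adjusted p = 0.113). *col-17* rose, with 377, 401 and 425 FPKM in *alh-6* against 225, 196 and 183 FPKM in WT (1.00 ± 0.09). The transmembrane collagen *col-99* was at 6.67, 4.96 and 6.61 FPKM in *alh-6* and 5.05, 4.25 and 4.69 FPKM in WT, which overlapped (0.37 ± 0.16, adjusted p = 0.146).

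The direction at L4 went with the level in adults. This grouping was made after the values were seen and is given with no test. Among the 22 *col* genes that averaged 10 FPKM or more in day 3 adults, 0 were higher in *alh-6* at L4, 15 were lower and 7 did not pass, with a median log2 difference of -0.50. For this and the lower adult levels below, the same call held for 8.19% of all genes tested (higher) and 7.15% (lower). Over all 112 *col* genes tested it was 41.1% higher and 26.8% lower. At an unadjusted p under 0.05, limma had 0 of the 22 higher (14.6% of all genes tested) and 17 lower (16.7% of all genes), and limma-voom on recovered reads called 0 higher (10.5% of all genes) and 15 lower (9.59% of all genes). Among those at 1 to 10 FPKM in day 3 adults, 32 were tested at L4, of which 13 were higher and 7 lower (median 0.29). Among those under 1 FPKM in day 3 adults, 58 were tested at L4, of which 33 were higher and 8 lower (median 0.55). The exceptions in that last group were *col-7*, *col-62*, *col-92*, *col-127*, *col-141*, *col-146*, *col-147* and *col-149*. The 7 adult-expressed genes that did not pass were *col-42*, *col-95*, *col-98*, *col-101*, *col-103*, *col-143* and *col-166*.

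Neighbours on the chromosome could differ in direction. With no other protein coding gene between them, 45 *col* genes form 19 runs of 2 to 5. At L4, 9 runs held only called members that were lower, 2 only called members that were higher, 2 held both, and 6 held no called member. Among these 6, the run of *col-50* and *col-51* and that of *col-9* and *col-44* held no gene tested at L4. Other runs also hold members that were untested or did not pass. For single genes, 8.19% of all genes tested were higher and 7.15% lower. On chromosome II, between 4866436 and 4873129, *col-20* fell by 0.71 ± 0.12 on the log2 scale between *col-17* (1.00) and *col-73* (1.03). *col-20* was at 1043, 1035 and 744 FPKM in *alh-6*, against 1493, 1550 and 1531 FPKM in WT. Also on chromosome II, between 10703613 and 10708287, *col-79* rose (0.79 ± 0.08) next to *col-39* (-0.64) and *col-80* (-0.87), all on the same strand. By contrast the X run of *col-178* (-0.58 ± 0.07) and *col-179* (-1.04) fell as a pair. In the run *col-167* to *col-171*, also on X, none was called, and *col-171* was not tested. By chromosome, calls were 8 higher and 2 lower on I, 8 higher and 4 lower on II, 5 higher and 4 lower on III, 14 higher and 6 lower on IV, 5 higher and 9 lower on V, and 6 higher and 5 lower on X. The numbers tested were 12 on I, 13 on II, 12 on III, 30 on IV, 26 on V and 19 on X, and over all 112 genes 41.1% were higher and 26.8% lower; no difference between chromosomes was tested.

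Collagens known by mutant names gave a more uniform picture at L4. The lists used here were chosen with earlier results of these data known, so their counts are not support by themselves. At L4, 8.19% of all genes tested were higher and 7.15% lower, with a median of -0.03. All 6 furrow collagens, which build the annular furrows of the cuticle, were called higher in *alh-6*. *dpy-2* averaged 11.1 FPKM in *alh-6* and 2.46 FPKM in WT (log2 difference 2.11 ± 0.17, limma), and *dpy-7* averaged 16.8 FPKM in *alh-6* and 4.64 FPKM in WT (1.84 ± 0.15). *dpy-9* was at 15.9, 13.5 and 15.7 FPKM in *alh-6*, against 4.26, 4.32 and 4.83 FPKM in WT (1.73 ± 0.12). *dpy-3* (1.69), *dpy-8* (1.71) and *dpy-10* (1.65) rose by like amounts. Of 11 other collagens named by mutants, 10 were higher (median 1.21), led by *bli-1* at 41.4 FPKM in *alh-6* and 14.7 FPKM in WT (1.49 ± 0.14), and *dpy-17* was lower. All 13 molt genes tested were higher, with a median of 1.35, led by the lipocalin *lpr-3* at 12.3 FPKM in *alh-6* and 2.98 FPKM in WT (2.02 ± 0.16). The summed level of the molt genes was 321 to 380 FPKM in *alh-6* libraries, against 138 to 154 FPKM in WT. Molt genes follow the molting cycle, and *alh-6* and WT were each sampled at a single hour of L4, so a difference in position within the cycle and a difference at the same position cannot be told apart.

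Genes that modify collagen or control the cuticle moved in part. Of the 13 genes listed as collagen processing, 5 were higher at L4 and the rest did not pass (median 0.23). Beside this and the lists below, 8.19% of all genes tested were higher and 7.15% lower. The 5 were *dpy-18* and *phy-2*, subunits of prolyl 4-hydroxylase, *dpy-11*, a thioredoxin-like protein, *bli-5*, and *dpy-5*. *dpy-5* encodes a cuticle procollagen and not a processing enzyme, although the list holds it. *dpy-5* was the furthest apart, at 1676 FPKM in *alh-6* and 772 FPKM in WT (1.11 ± 0.10, adjusted p = 0.000311, limma). Of 9 cuticle regulators, 3 were higher and the rest did not pass: *grh-1*, the Grainyhead factor (0.91 ± 0.15), *lin-42*, the Period homologue (0.82 ± 0.06), and *myrf-1* (0.79 ± 0.12). *lin-29* averaged 5.84 FPKM in *alh-6* and 5.22 FPKM in WT and did not pass (0.15 ± 0.13). Of 9 genes of the BMP pathway, which sets body size and acts on cuticle collagens, the Smad *sma-2* (0.72 ± 0.16) and *lon-1* (0.61 ± 0.10) were higher. Of the 3 basement membrane collagens, *cle-1* was lower (-0.36 ± 0.10), while *emb-9* and *let-2*, the type IV chains, did not pass.

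Marker lists of whole tissues showed other shifts beside the L4 result. Of 6 epidermis markers, *wrt-10* and *dpy-7* were higher and *grd-3* lower, and the summed level was 80.7 to 86.1 FPKM in *alh-6* and 82.9 to 94.6 FPKM in WT. All 5 oocyte and eggshell markers were lower (274 to 321 FPKM in *alh-6*, against 401 to 441 FPKM in WT), as were 2 of 5 sperm markers (443 to 515 FPKM in *alh-6*, against 567 to 596 FPKM in WT), *gld-1* among 4 germline markers and *pal-1* among 2 embryo markers tested of 7. In the embryo list, 2 genes were at 0 in all *alh-6* L4 libraries and 1 in all WT L4 libraries. Of 5 intestine markers *ges-1* was higher, and of 4 muscle and 4 neuron markers none was called. No gene of the other lists was at 0 throughout a group. Among all genes tested at L4, 8.19% were higher and 7.15% lower. The part of these shifts in the collagen result was not tested.

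In day 3 adults fewer *col* genes passed the test, and those that did were higher in *alh-6*. Of 56 *col* genes tested, limma with Benjamini-Hochberg adjustment called 8 higher in *alh-6* than in WT, where 2.14% of all genes tested were higher, and 0 lower, where 4.18% of all genes were. At an unadjusted p under 0.05, 22 were higher (6.52% of all genes tested) and 0 lower (20% of all genes), and limma-voom on recovered reads called 12 higher (3.13% of all genes) and 0 lower (6.33% of all genes). None of the 8 reached 2-fold. The median log2 difference was 0.22 for the *col* genes and -0.08 for all genes tested. The shares over all genes depended on the scaling of the libraries. Rescaling by the median ratio moved all genes called from 225 higher and 439 lower to 296 higher and 153 lower, with a median of -0.00. It left 8 *col* genes higher and 0 lower, with a median of 0.30. The summed FPKM was 6771, 7673 and 9187 in *alh-6*, against 6709, 6668 and 5877 in WT, so the lowest *alh-6* library stood just above the highest WT library.

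*col-160* (WBGene00000733, chromosome V from 13200982 to 13202189) was at 149, 161 and 204 FPKM in *alh-6* day 3 adults, against 90.9, 94.1 and 75.4 FPKM in WT, a log2 difference of 0.97 ± 0.14 (adjusted p = 0.0122, limma). Its neighbour *col-159*, which shares 21 exon bases with it, was at 5.60, 6.30 and 7.26 FPKM in *alh-6*, against 4.10, 4.20 and 3.81 FPKM in WT (0.64 ± 0.13, adjusted p = 0.0212). The higher value of *alh-6* held in every library of both genes, and reads over the shared bases cannot be assigned to either. *col-142* (chromosome V from 6831177 to 6832256) was at 11.1, 10.7 and 14.1 FPKM in *alh-6*, against 7.03, 6.63 and 5.41 FPKM in WT (0.90 ± 0.14, adjusted p = 0.00582). *col-80* (chromosome II from 10707201 to 10708287) was at 344, 391 and 479 FPKM in *alh-6*, against 238, 257 and 209 FPKM in WT (0.78 ± 0.13, adjusted p = 0.0149). *col-94* was at 9.63, 10.4 and 13.1 FPKM in *alh-6*, against 6.41, 7.39 and 5.18 FPKM in WT (0.80 ± 0.15, adjusted p = 0.0150). Replicate 3 of *alh-6* was the highest library in each of these 5 genes. *col-139* was at 5.78, 6.36 and 5.10 FPKM in *alh-6*, against 3.57, 4.44 and 3.02 FPKM in WT (0.64 ± 0.16). *col-135* was at 11.5, 12.4 and 11.9 FPKM in *alh-6*, against 8.36, 7.96 and 7.23 FPKM in WT (0.60 ± 0.10). *col-95* was at 640, 701 and 811 FPKM in *alh-6*, against 554, 554 and 479 FPKM in WT (0.43 ± 0.10, adjusted p = 0.0257). The groups did not overlap in any of the 8.

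**Figure D4:**
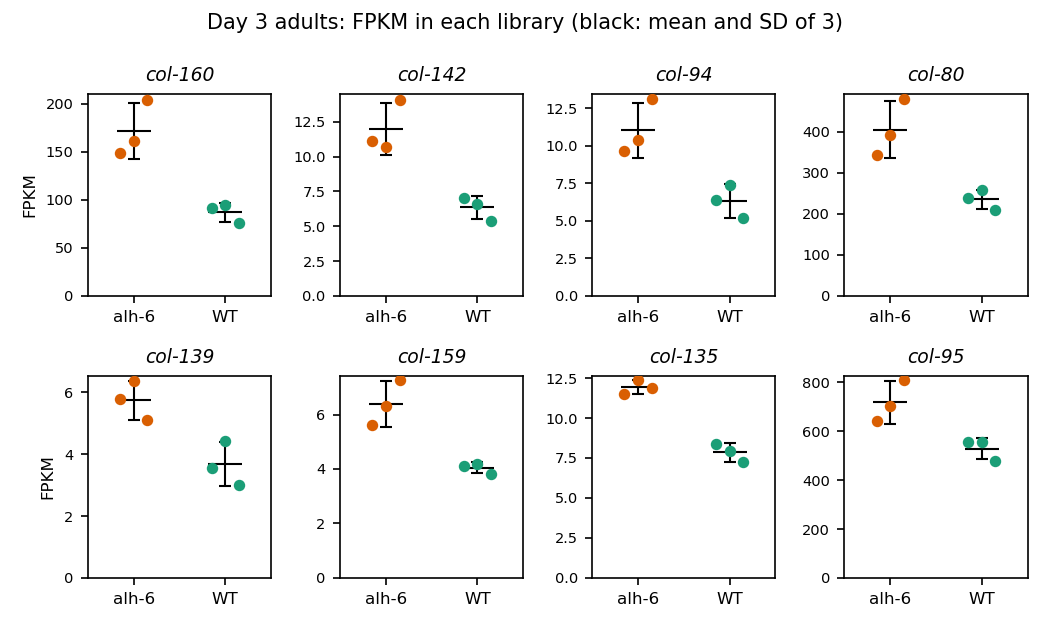
FPKM in each day 3 adult library of the 8 *col* genes called higher in *alh-6*, *alh-6* left and WT right, with the mean and SD of 3 libraries in black; each panel has its own axis from 0. Every *alh-6* library lies above every WT library, for *col-160* at 149 to 204 FPKM against 75.4 to 94.1 FPKM.

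The number of day 3 calls rested on single libraries and on the fit. With all 12 libraries in 1 fit, 13 were higher (1.87% of all genes tested) and 3 lower (2.06% of all genes), and the lower ones, *col-7*, *col-115* and *col-170*, were at or under 0.439 FPKM in every day 3 library. With the 6 day 3 libraries, the count of higher genes changed as each was left out. It was 17 without *alh-6* replicate 1, 10 without *alh-6* replicate 3, 4 without *alh-6* replicate 2, 3 without WT replicate 1 and 4 without WT replicate 3. In the same order, 240, 301, 124, 114 and 93 of all genes were called higher, against 225 with all 6 libraries. The number of calls thus moved over all genes too. *col-135*, *col-142* and *col-160* were called without each of the 6 libraries in turn. The replicate block lost *col-160* and *col-95*, and the fit of 12 libraries lost *col-135* and *col-95*, so of these 3 only *col-142* was also called in both. Over 13 other settings (the 2-fold threshold aside) the call of *col-95* was lost in 7 and that of *col-94* in 3. The largest positive value, *col-93* at 63.9, 86.9 and 107 FPKM in *alh-6* against 35.9, 37.6 and 23.1 FPKM in WT (1.42 ± 0.29, adjusted p = 0.0604, limma), did not pass although its libraries did not overlap. Of the 8 *col* genes with the highest adult levels, 5 overlapped between the genotypes. Of these, *col-122* was at 670, 744 and 1004 FPKM in *alh-6*, against 708, 763 and 612 FPKM in WT (0.20 ± 0.15, adjusted p = 0.439). *col-119* (0.17 ± 0.11), *col-181* (0.14 ± 0.10), *col-140* (0.32 ± 0.14) and *col-106* (0.10 ± 0.09) did not pass either, nor did *col-19* (0.20 ± 0.15).

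Other collagens and markers moved in day 3 adults as well. The type IV chains *emb-9*, at 23.6, 24.1 and 25.8 FPKM in *alh-6* against 15.2, 16.3 and 13.5 FPKM in WT (0.71 ± 0.09), and *let-2*, at 36.7, 36.8 and 43.7 FPKM in *alh-6* against 23.3, 26.7 and 18.8 FPKM in WT (0.77 ± 0.12, adjusted p = 0.00875, limma), were higher. *sqt-3*, a cuticle collagen named by its mutant, was lower, at 4.72 FPKM in *alh-6* and 8.36 FPKM in WT (-0.83 ± 0.17), the only call among 4 tested of its list. Of 5 molt genes tested, *noah-1*, a zona pellucida domain protein, was lower (-1.02 ± 0.22). The only furrow collagen tested was *dpy-10*, which did not pass (-0.26 ± 0.13), and *lon-1* was the only BMP pathway gene called (0.50 ± 0.09, higher). No call fell on the 11 genes tested of the collagen processing list, *dpy-5* among them, or on the 7 cuticle regulators tested. All 4 muscle markers were higher, with a summed level of 294 to 321 FPKM in *alh-6* and 162 to 191 FPKM in WT, as were the vitellogenins *vit-2* and *vit-6* among 5 intestine markers. *wrt-10* of the 4 epidermis markers tested (of 6) and *tbx-37* of the 3 embryo markers tested (of 7) were lower. No neuron, germline or oocyte marker was called. Of 5 sperm markers only 1, *msp-31*, was tested, and it did not pass. In day 3 adults 2.14% of all genes tested were higher and 4.18% lower. The part of these genes in the collagen result was not tested.

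The stages were then compared gene by gene. The L4 and day 3 comparisons share no library. Across the 54 *col* genes tested at both, the log2 differences of *alh-6* over WT had a Pearson r of -0.34 and a Spearman rho of -0.35, given as a description across genes of the same libraries, while across all 9945 genes tested at both r was 0.07 and rho 0.12. Of the 21 *col* genes lower at L4, 18 had a positive value in day 3 adults, and 5 of them were called higher there: *col-80*, *col-139*, *col-142*, *col-159* and *col-160*. Over 13 other settings (the 2-fold threshold aside) the day 3 call was lost in 5 for *col-139* and 5 for *col-159*. It was lost in 2 for *col-80*, 1 for *col-160* and 0 for *col-142*. A positive value was common among all *col* genes in day 3 adults, at 42 of 56 (75%), against 3338 of all 10501 genes tested (31.8%). Both shares are from FPKM as deposited, without the rescaling by the median ratio. Of the 13 higher at L4, 7 had a positive and 6 a negative value in day 3 adults, and 0 were called higher there (1 at an unadjusted p under 0.05, 0 by limma-voom). For *col-80* this meant 657, 539 and 406 FPKM in *alh-6* at L4, against 952, 1006 and 912 FPKM in WT, in the reverse order to its day 3 values.

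**Figure D5:**
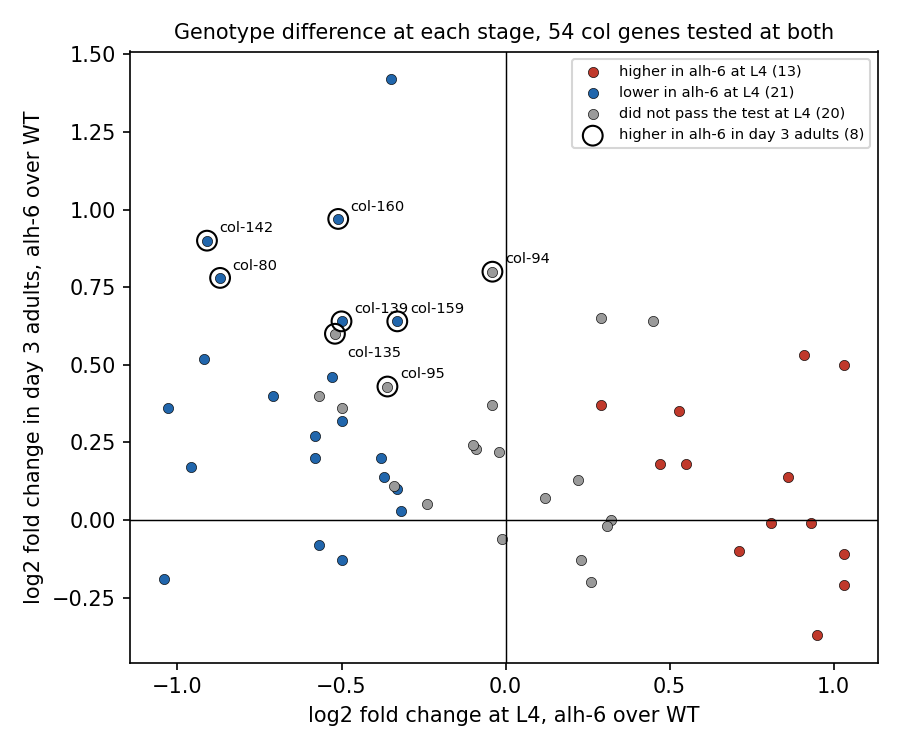
Log2 difference of *alh-6* from WT at L4 (horizontal) and in day 3 adults (vertical) for the 54 *col* genes tested at both stages; colours give the L4 call and rings mark the 8 genes called higher in day 3 adults. Of the 21 blue points, 18 lie above 0 on the vertical axis, as do 40 of all 54.

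A genotype by stage term, the day 3 difference minus the L4 difference in 1 fit of all 12 libraries, tested whether the differences at the stages were unequal. It does not test whether adults differed in the opposite direction, and since the L4 difference is subtracted, genes lower at L4 tend to a positive term by construction. Of 114 *col* genes, 18 had a positive term that passed (3.37% of all genes tested) and 13 a negative one (4.01% of all genes tested). Of the 18, 16 were lower in *alh-6* at L4, and *col-94* and *col-135* were the others. Of the same 18, 7 were called in day 3 adults: *col-80*, *col-94*, *col-135*, *col-139*, *col-142*, *col-159* and *col-160*. *col-142* had the largest positive term among the named genes, 1.81 ± 0.28 (adjusted p = 0.00374, limma), followed by *col-93* (1.76 ± 0.29), *col-80* (1.65 ± 0.23) and *col-160* (1.49 ± 0.18). Of the 13 with a negative term, 12 were higher in *alh-6* at L4, led by *col-115* (-1.71 ± 0.28) and *col-152* (-1.65 ± 0.43). These 13 were at or under 5.16 FPKM in every day 3 library, where the term depends on the handling of values near 0. Limma-voom on recovered reads called 3 of them, *col-38*, *col-48* and *col-73* (3.97% of all genes tested had a negative term that passed), beside 20 positive terms (3.68% of all genes), and a pseudocount of 1 gave 40 negative terms (7.05% of all genes). The positive terms belong to genes at 2.67 to 870 FPKM in day 3 adults.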

How the data were processed

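RNA-Seq of 12 libraries was analyzed, grouped by genotype and stage from the sample labels. The authors deposited gene expression in FPKM for every library (reads scaled to gene length and to reads on genes). They also deposited, per stage, each group's mean signal of read counts divided by size factors, with log2 fold changes and p-values of their own comparison, which were not used. The submitters' processing notes name CASAVA 1.8, Bowtie2 2.2.3, TopHat2 2.0.12, HTSeq 0.6.1, DESeq 1.18.0 and build ce11; strand handling and multiply mapped reads are not given in the sources used here. Symbols and positions came from the WBcel235 annotation, which held 46364 of the 46726 identifiers, 43623 with a symbol. Sequences were not used here, so identical proteins among the members were not looked for.

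Joining FPKM and mean signals recovered the reads of each library: 100% of the values above 0 were whole within 0.001, with 19248229 to 23575173 reads per library.

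Genotypes and stages were compared with limma 3.58.1 (R 4.3.3, robust variance with a trend) after a log2(FPKM + 0.1) transform, using the 6 libraries of a stage, or all 12 for stage contrasts and the genotype by stage term. Genes needed at least 1 FPKM in at least 3 libraries. P-values were adjusted by Benjamini-Hochberg over all genes tested, and calls used an adjusted p under 0.05. Alternatives were pseudocounts of 1 and 0.01, no filter, rescaling by the median ratio, a replicate block, limma-voom on recovered reads, 12 libraries in 1 fit, a 2-fold threshold and each library left out. The fits were tested on simulated data.

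Named genes were the 5 largest rises and 5 largest falls among called members with a mean of at least 5 FPKM per comparison, the 8 highest members per stage, members with a known role, all furrow collagens, and the called gene of every other list with the largest change. Others named with values stand in a neighbour run or a count, or are marked as picked later. The members and gene lists were chosen with earlier results of these data known.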

Additional observations from a re-analysis of the deposited data

Results flagged for a closer look

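For 24 named *col* genes the genotype by stage term passed limma's test after Benjamini-Hochberg adjustment, as did 7.38% of all genes tested. The term is the day 3 difference of *alh-6* over WT minus the L4 difference on the log2 scale. Some of the 24 were named for the size of this term or of the L4 difference that it subtracts. Their number is therefore no support by itself, and genes lower at L4 tend to a positive term by construction. A positive term means that the log2 difference of *alh-6* from WT was higher in day 3 adults than at L4. It does not mean a higher level in adults. The term was positive for *col-142* (1.81), *col-93* (1.76), *col-80* (1.65), *col-160* (1.49), *col-96* (1.43), *col-8* (1.39), *col-139* (1.14), *col-119* (1.13), *col-135* (1.12), *col-124* (0.99), *col-159* (0.97), *col-179* (0.86), *col-178* (0.85), *col-94* (0.84), *col-140* (0.82), *col-19* (0.78) and *col-181* (0.52). It was negative for *col-115* (-1.71), *col-152* (-1.65), *col-63* (-1.53), *col-48* (-1.33), *col-73* (-1.24), *col-90* (-1.24) and *col-88* (-0.75). Over 18 other settings (the 2-fold threshold aside) the call was lost in 14 for *col-90*, 12 for *col-181*, 10 for *col-152*, 4 for *col-124*, 3 for *col-19*, 2 for *col-135* and 1 each for *col-63*, *col-88* and *col-115*, and in 0 for the others. Limma-voom on recovered reads kept only *col-48* and *col-73* of these 7 negative terms. Groups of 3 libraries were not checked for single outlying values.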

How the results depend on the processing

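Over the alternatives other than the 2-fold threshold, 64 of 89 results for named *col* genes passed throughout and 0 changed sign; 38 of the 64 were also at least 2-fold. At L4 the counts of *col* genes higher and lower in *alh-6* ranged over 41 to 52 and 25 to 32 with a library left out; they were 31 and 21 with all 12 libraries in 1 fit, and 16 and 2 at 2-fold. In day 3 adults, 3 to 17 were higher and 0 to 0 lower with a library left out, 5 higher without the filter, 0 at 2-fold, and 13 higher and 3 lower with all 12 libraries in 1 fit. Counts over all genes moved as well. With a library left out, 759 to 861 of all genes were higher and 501 to 991 lower at L4. In day 3 adults 93 to 301 were higher and 54 to 932 lower. Between stages in *alh-6*, 7 to 11 were higher and 100 to 102 lower with a library left out (7 when replicate 3 of *alh-6* at either stage was absent), and 6 higher at 2-fold. In WT the ranges were 7 to 7 and 102 to 104, and 11 were higher without the filter. Genotype by stage terms were positive for 14 to 26 and negative for 9 to 16 genes with a library left out, 10 and 8 at 2-fold, 40 negative with a pseudocount of 1 and 3 negative on recovered reads. Of all genes tested, 334 to 470 had a positive and 359 to 621 a negative term that passed with a library left out. The cause of these moves was not tested, apart from the fewer genes that a 2-fold threshold admits by construction. Deviations of same-numbered libraries from their group means had correlations of -0.069 to 0.139. The highest was between replicate 3 of *alh-6* L4 and of WT L4, and the next highest was 0.028. With the replicate block, L4 counts were 50 higher and 31 lower, day 3 counts 6 and 0, and genotype by stage counts 15 and 14. Genes with few reads in day 3 adults limit what can be said of the 58 tested at L4 alone.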
